A study of Mus musculus with 18 samples.

Results

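The genes described here are 31 genes of cholesterol handling, taken by name from the 16873 genes in the deposited table: 4 regulators of sterol sensing, 19 enzymes of cholesterol synthesis, 4 genes of sterol transport and storage and 4 sterol exporters. All 31 were found in the table and all 31 passed the filter on low values, so each was tested. They were measured by RNA sequencing of hepatocytes from the livers of wild-type (WT) mice and of mice lacking Mtdh (KO), a gene for the membrane-associated protein metadherin. Hepatocytes of each genotype received 1 of 3 treatments: the cytokine TNFa, the cytokine TGFb, or medium (CM) conditioned by liver macrophages, known as Kupffer cells, that had been exposed to Py8119-EVPs; Py8119 is a mouse mammary tumour cell line. This gave 6 groups of 3 libraries each, 18 in all. All mice were age-matched and labelled as normal without tumour. There was no untreated group, so a treatment could only be set against another treatment. For doses, treatment times, sex, exact age and the deleted portion of Mtdh, no statement was found in the labels.

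Cholesterol is made from acetyl-CoA by way of mevalonate, isoprenoids, squalene and lanosterol. When sterol in the endoplasmic reticulum is scarce, the carrier protein Scap takes the membrane-bound factor SREBP2 to the Golgi apparatus, where it is cut and released to switch on the synthesis genes; when sterol is plentiful, the Insig proteins hold Scap back. An excess of oxysterols activates LXR receptors, which switch on the exporters Abca1, Abcg1, Abcg5 and Abcg8. The hepatocyte both makes cholesterol and sends it out, in lipoproteins and into bile.

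The values are the signal per gene and library that the authors normalized with DESeq2, as the file name states. They were put on the log2 scale after adding 1, and fold changes below are differences of group means on that scale, with their standard errors (SE). A gene was called higher or lower when the Benjamini-Hochberg adjusted p of limma, over the 14455 genes tested, was below 0.05. Values per library are printed in the order of replicate 1, 2 and 3. A group's 3 libraries are labelled as biological replicates, but whether each came from its own mouse is not stated, so p-values measure the spread between libraries, which may in part be technical. Levels were not compared between genes, because no transcript length was given.

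Summed values per library ranged from 21590463 to 26417977. Read depth is not known: at the smallest step that recurred among low values, 59.8% to 76.4% of values up to 200 reads lay within 0.05 of a whole number of reads, too few to recover counts. Mtdh itself had values of 13063, 13037 and 12393 in WT and 749, 829 and 581 in KO with TNFa. With TGFb, Mtdh stood at 13598, 13725 and 12873 in WT and 973, 970.4 and 933 in KO, and with CM at 12253, 10063 and 12012 and 747, 719.5 and 864. Every KO library lay far below every WT library, as the labels say. All 10 hepatocyte markers, among them Alb and Apob, were above 0 in all 18 libraries. The stellate cell genes Col1a1 and Acta2 were listed at 0 in 16 and 13 libraries, and the T and B cell genes Cd3e and Cd79a in 11 and 15. Other genes of the same lists were above 0 in all 18 libraries: Reln, Dcn and Rgs5 for stellate cells, and Ptprc and Ms4a1 for T and B cells. The values of 0 thus do not show that these cell types were absent. Kupffer cell and macrophage markers were present and moved with genotype, and their values are given beside the exporters. The second TNFa WT library stood apart in its share of mitochondrially encoded RNA, 2.97%, against 3.84% to 7.44% in the others.

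Promoter sequence is shown for 4 members that were higher with CM than with either cytokine in both genotypes. The gap between Abcg5 and Abcg8 is shown as well, since Abcg5 and Abcg8 were called in the same treatment comparisons and in the same direction. RefSeq promoter windows of the build GRCm38.p6 (250 bases before to 50 bases after a gene start) matched 24 of the 31 members; this build is not the mm39 build of the deposited coordinates. Each line gives bases before the start, 5′ to 3′ on the gene's own strand, and capitals mark a match to TCACNCCAC, a form of the sterol regulatory element, or to the NF-Y box CCAAT, here read as ATTGG on the opposite strand. NF-Y is a factor known to act next to SREBP2.
Hmgcs1, chr13:119690101-119690350, plus strand: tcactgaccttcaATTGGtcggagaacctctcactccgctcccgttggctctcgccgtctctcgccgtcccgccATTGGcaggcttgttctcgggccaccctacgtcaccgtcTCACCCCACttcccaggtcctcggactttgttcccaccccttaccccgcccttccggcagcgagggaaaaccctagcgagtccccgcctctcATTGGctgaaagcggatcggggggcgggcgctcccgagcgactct
Insig1, chr5:28071162-28071411, plus strand: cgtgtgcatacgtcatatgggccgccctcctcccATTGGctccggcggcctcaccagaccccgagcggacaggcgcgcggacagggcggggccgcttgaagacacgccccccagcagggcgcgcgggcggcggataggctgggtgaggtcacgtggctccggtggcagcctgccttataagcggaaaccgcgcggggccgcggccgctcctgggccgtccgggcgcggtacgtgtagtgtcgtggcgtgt
Lss, chr10:76531355-76531604, plus strand: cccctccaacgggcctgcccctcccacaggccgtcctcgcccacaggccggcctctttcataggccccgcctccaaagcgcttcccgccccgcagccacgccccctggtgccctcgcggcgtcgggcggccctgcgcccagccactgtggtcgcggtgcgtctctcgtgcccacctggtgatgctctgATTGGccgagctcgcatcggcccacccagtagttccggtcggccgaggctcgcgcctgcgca
Sc5d, chr9:42264301-42264550, minus strand: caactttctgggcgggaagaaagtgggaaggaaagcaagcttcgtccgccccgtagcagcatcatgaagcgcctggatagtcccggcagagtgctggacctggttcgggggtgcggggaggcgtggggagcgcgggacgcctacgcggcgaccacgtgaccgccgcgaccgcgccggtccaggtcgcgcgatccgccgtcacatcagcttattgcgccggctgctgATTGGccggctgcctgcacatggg
Abcg5 to Abcg8, chr17:84683012-84683120, plus strand, the 109 bases between the 2 divergent gene starts: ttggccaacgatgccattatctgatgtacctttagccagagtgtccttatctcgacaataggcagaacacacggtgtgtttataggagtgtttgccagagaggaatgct

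A search of both strands found CCAAT in the windows of 21 of 24 matched members (87.5%), against 41.1% of all 27025 genes with a window. In Hmgcs1 it occurred 3 times. TCACNCCAC was found in 1 of 24 members, Hmgcs1 (4.17%), where it began 137 bases before the gene start, and in 1.44% of all genes. A longer form, which adds an A in front and has C at the open position, and the LXR direct repeat (AGGTCA, 4 open bases, AGGTCA) were in none of the 24 members, and in 0.0999% and 0.0148% of all genes. Each match of the longer form is also a match of TCACNCCAC. In the windows of Abcg5 and Abcg8 no CCAAT match lay wholly within the 109 bases printed. These are matches of letters in a short window and are not shown to be bound.

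**Figure D1:**
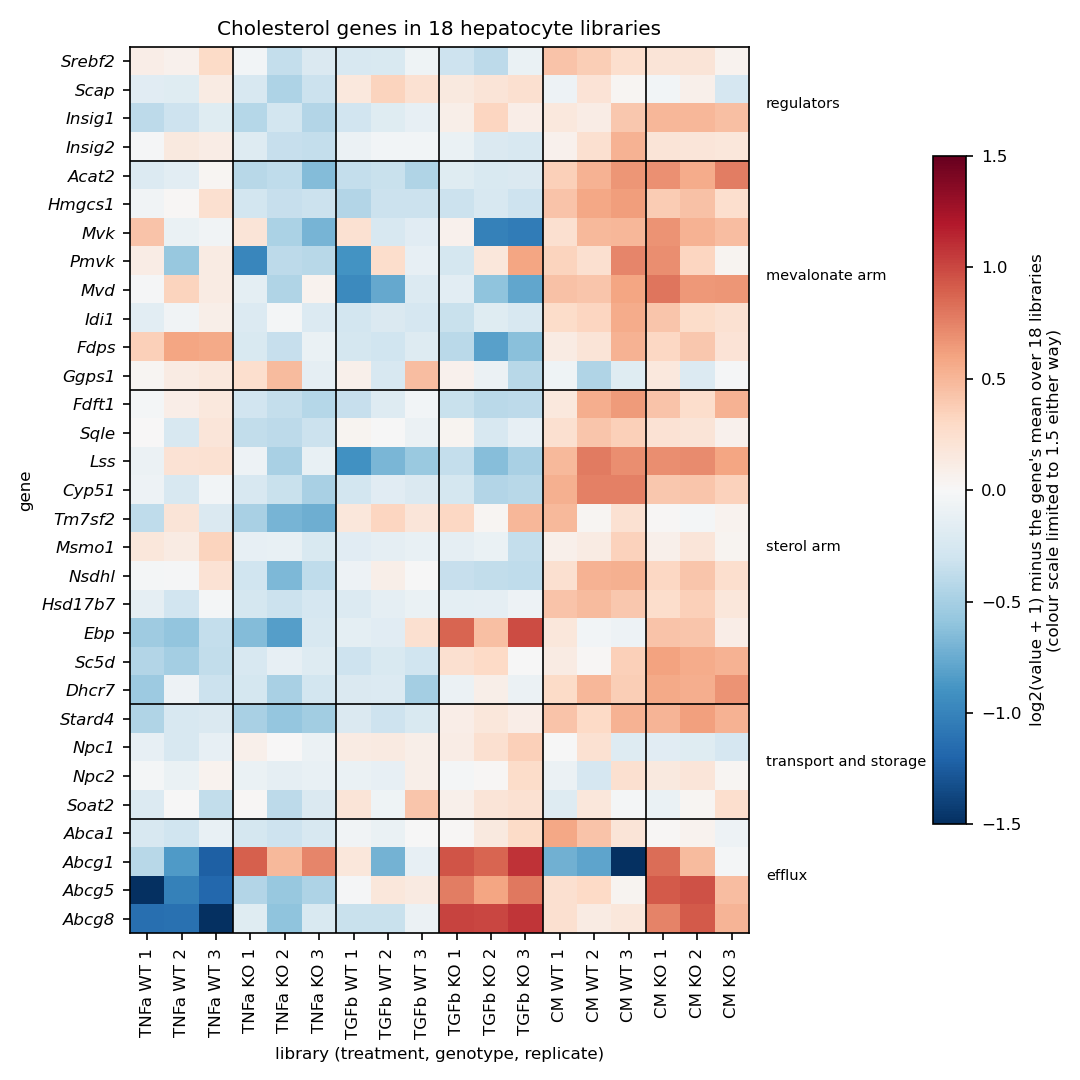
Each row is 1 of the 31 genes and each column 1 of the 18 libraries; colour gives log2(value + 1) minus the gene's mean over the 18 libraries, with the scale limited to 1.5 in either direction. Most synthesis genes are red in the 6 CM libraries, and Abcg1 is red in the KO libraries of all 3 treatments except the third CM KO library, which is near 0.

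The first question was which cholesterol genes differed between KO and WT under each treatment. With TNFa, 8 of 19 synthesis enzymes were lower and 3 of 4 exporters higher in KO hepatocytes: of the 31 genes 3 were higher and 10 lower, where 4.19% of all tested genes were higher and 3.70% lower. With TGFb 7 were higher and 2 lower, against 7.25% and 4.95% of all genes. With CM 3 were higher and 2 lower, against 5.62% and 3.77%. The members' median log2 fold change was -0.23 with TNFa, 0.07 with TGFb and 0.01 with CM, beside 0.02, -0.01 and -0.01 over all tested genes. Averaged over the 3 treatments, 6 members were higher and 10 lower, against 11.2% and 9.53% of all genes. In bulk RNA a change in how many cells of a type were present cannot be told apart from a change in RNA per cell.

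These counts moved with single libraries and with scaling. Without the third TNFa WT library the count with TNFa fell to 7 (3 higher, 4 lower), and without the third TGFb KO library the count with TGFb fell to 5, all higher. With CM it was 3 (2 higher, 1 lower) without the second WT, the first KO or the second KO library. With libraries scaled to equal totals, the split of higher to lower was 6 to 3 with TGFb and 2 to 5 with CM; that scaling shifted the median of all genes by -0.11 with TGFb.

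**Figure D2:**
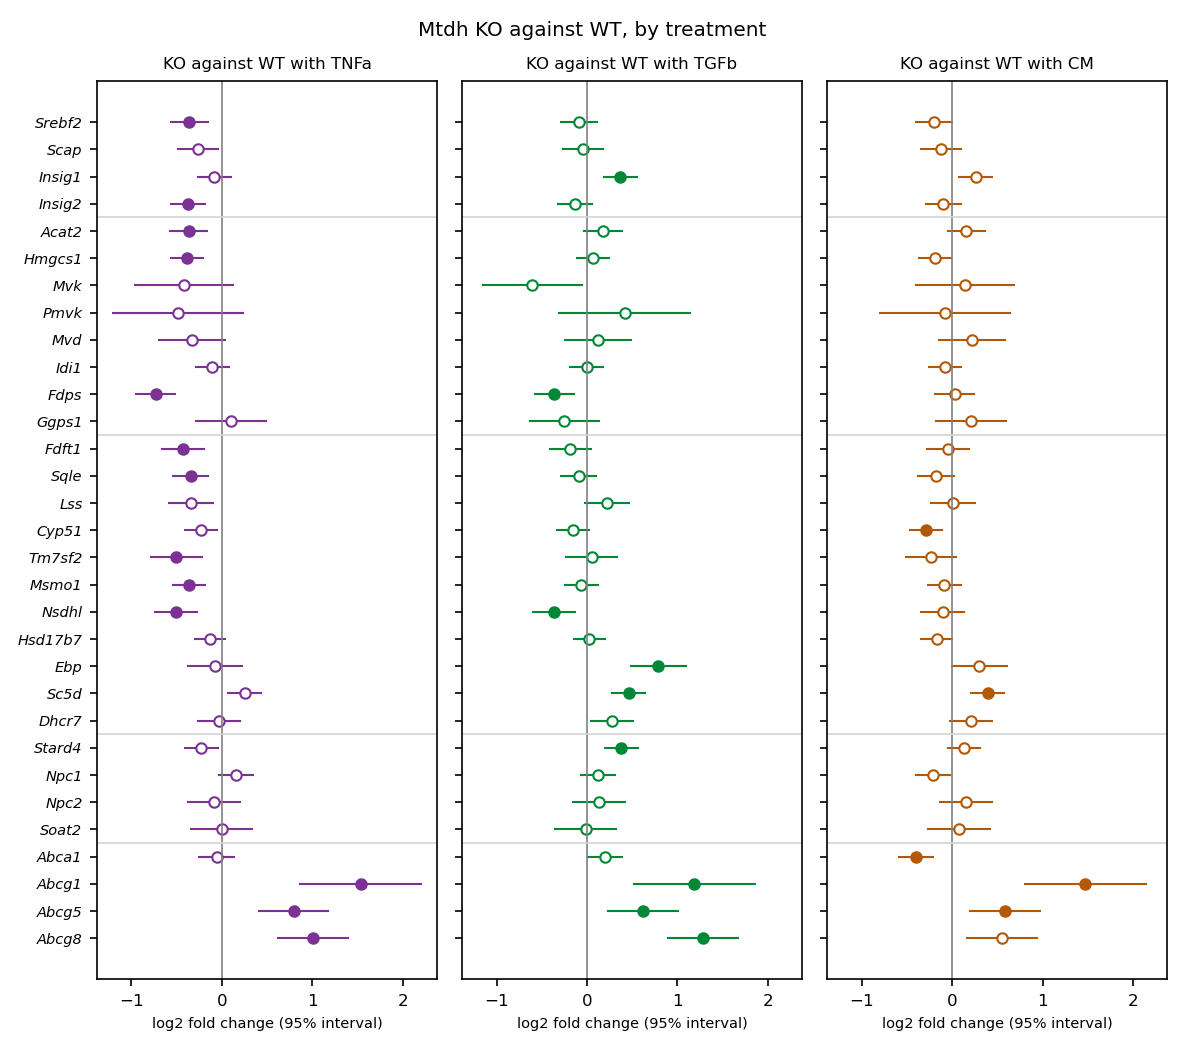
Points are log2 fold changes of KO against WT for each gene with 95% intervals, in 1 panel per treatment; filled points have an adjusted p below 0.05, and grey lines separate regulators, mevalonate arm, sterol arm, transport and storage, and efflux. With TNFa 10 filled points lie left of 0 and the filled points of Abcg1, Abcg5 and Abcg8 lie right of it.

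Among the regulators, Srebf2 (mm39, chr15:82031382-82089581, plus strand) encodes SREBP2. Srebf2 in WT had normalized values of 3650.2, 3569 and 4155 with TNFa, 2877, 2907 and 3253 with TGFb and 4556, 4379 and 4062 with CM. Srebf2 in KO had 3309, 2650.1 and 2923 with TNFa, 2744, 2593 and 3175 with TGFb and 3888, 3882 and 3533 with CM. All KO libraries lay below all WT libraries with TNFa and with CM, and the genotypes overlapped with TGFb. The fall was called with TNFa (log2 fold change -0.36, SE 0.10, adjusted p = 0.0191) and not with CM (-0.20 with adjusted p = 0.237). Scap encodes the escort of SREBP2. Scap in WT had normalized values of 1695, 1687 and 2079.6 with TNFa, 2122, 2403 and 2246 with TGFb and 1813, 2195 and 1947 with CM. Scap in KO had 1621, 1384 and 1524 with TNFa, 2114, 2190.1 and 2261 with TGFb and 1862, 2011 and 1609 with CM. The KO libraries were the lower ones with TNFa without overlap, yet no KO difference of Scap was called (TNFa -0.27 with adjusted p = 0.142).

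Insig1 (chr5:28276361-28283661, plus strand) retains Scap in the endoplasmic reticulum and is itself a target of SREBP2. Insig1 in WT had normalized values of 7731, 8155 and 8976 with TNFa, 8293, 8937 and 9319.5 with TGFb and 11299, 10942 and 13379 with CM. Insig1 in KO had 7567, 8378 and 7464 with TNFa, 10748, 12684 and 10901 with TGFb and 14348, 14323 and 13869 with CM. KO libraries were above WT libraries with TGFb and with CM and mixed with them with TNFa. The rise was called with TGFb (log2 fold change 0.37, SE 0.09, adjusted p = 0.00489) and missed the threshold with CM (0.26 with adjusted p = 0.0645). Insig2 is its paralog. Insig2 in WT had normalized values of 4568, 5129 and 4972 with TNFa, 4358, 4503 and 4502 with TGFb and 4832, 5473 and 6618 with CM. Insig2 in KO had 4052, 3649 and 3610.2 with TNFa, 4327, 3966 and 3899.7 with TGFb and 5281, 5244 and 5189 with CM. It was lower in every KO library with TNFa (log2 fold change -0.38, SE 0.09, adjusted p = 0.00938) and with TGFb, where the difference was not called (-0.13 with adjusted p = 0.429); with CM the genotypes overlapped. The call of Srebf2 ended without the third TNFa WT library or without the second or the third TNFa KO library (adjusted p up to 0.131 over the alternatives), that of Insig2 without the second TNFa WT library (up to 0.0503), and that of Insig1 held in all 14 alternatives.

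In the mevalonate arm, which leads from acetyl-CoA to the isoprenoids, 3 of 8 genes fell in KO with TNFa and 1 fell with TGFb. With CM none was called (limma, 1 of 8 at an unadjusted p below 0.05). Of all tested genes, 3.70%, 4.95% and 3.77% were lower in KO with TNFa, TGFb and CM. Acat2 encodes the thiolase of the first step, and its reads may be shared with its near-identical neighbour Acat3. Acat2 in WT had normalized values of 1910.0, 1988 and 2247 with TNFa, 1719.6, 1750.2 and 1617 with TGFb and 2825, 3174 and 3495 with CM. Acat2 in KO had 1662, 1697 and 1405 with TNFa, 1953, 1882 and 1904 with TGFb and 3553, 3251 and 3771 with CM. With TNFa the KO libraries were all lower (log2 fold change -0.37, SE 0.10, adjusted p = 0.0196), with TGFb they were all higher but not called (0.17 with adjusted p = 0.313), and with CM they overlapped. Hmgcs1 (chr13:120151915-120169797, plus strand), whose promoter is printed above, encodes HMG-CoA synthase. Hmgcs1 in WT had normalized values of 21473, 22546 and 26425 with TNFa, 16397, 17882 and 17808 with TGFb and 30095, 33284 and 34331 with CM. Hmgcs1 in KO had 18419, 17621 and 17798 with TNFa, 17775, 18883 and 18004 with TGFb and 29128, 30164 and 26545 with CM. KO libraries lay below WT with TNFa (log2 fold change -0.38, SE 0.09, adjusted p = 0.0041) and overlapped with WT under the other treatments.

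Fdps (chr3:89000895-89009267, minus strand) encodes farnesyl diphosphate synthase, which makes the last isoprenoid before squalene. Fdps in WT had normalized values of 8995, 10630.4 and 10476 with TNFa, 5861, 5734 and 6157 with TGFb and 7660.0, 8030.1 and 10109.8 with CM. Fdps in KO had 6008, 5563 and 6566 with TNFa, 5330.1, 3999 and 4551 with TGFb and 8732, 9340.5 and 8111 with CM. This was the largest fall of any member with TNFa: every KO library was below every WT library, at 0.603 times the WT mean (log2 fold change -0.73, SE 0.11, adjusted p = 1.78e-05). With TGFb the KO libraries were again all lower (log2 fold change -0.36, SE 0.11, adjusted p = 0.0193), and with CM they overlapped with WT (0.03 with adjusted p = 0.917). The TNFa call of Fdps held in all 14 alternatives; its TGFb call ended without the first or the third WT or the second or the third KO library (adjusted p up to 0.128). The TNFa call of Acat2 ended without the third library of either genotype (up to 0.132), and that of Hmgcs1 without the third WT library (up to 0.0583).

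Mvd encodes the decarboxylase that makes isopentenyl diphosphate. Mvd in WT had normalized values of 621, 795 and 687 with TNFa, 324, 368 and 547 with TGFb and 854, 836 and 949.7 with CM. Mvd in KO had 569, 458 and 650.3 with TNFa, 561, 411 and 366 with TGFb and 1094, 987 and 999 with CM. The genotypes overlapped with both cytokines, and with CM the KO libraries were above WT without a call (0.22 with adjusted p = 0.526). Idi1 encodes the isomerase that follows. Idi1 in WT had normalized values of 9089, 9822 and 10819 with TNFa, 8423, 8728 and 8516 with TGFb and 12299, 12709.9 and 14991 with CM. Idi1 in KO had 8812, 9928 and 8833 with TNFa, 8043, 8939.8 and 8627 with TGFb and 13575, 12318 and 11926 with CM. The genotypes overlapped under all 3 treatments. Mvk and Pmvk, the kinases of mevalonate, ranged from 131 to 432 and from 60.9 to 202 over the 18 libraries. Ggps1, which branches off to geranylgeranyl diphosphate, ranged from 364 to 693. None of these 3 was called between genotypes under any treatment; their coefficients of variation within groups reached 47.7%, 38.1% and 24.7%, so small differences were not detectable.

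**Figure D3:**
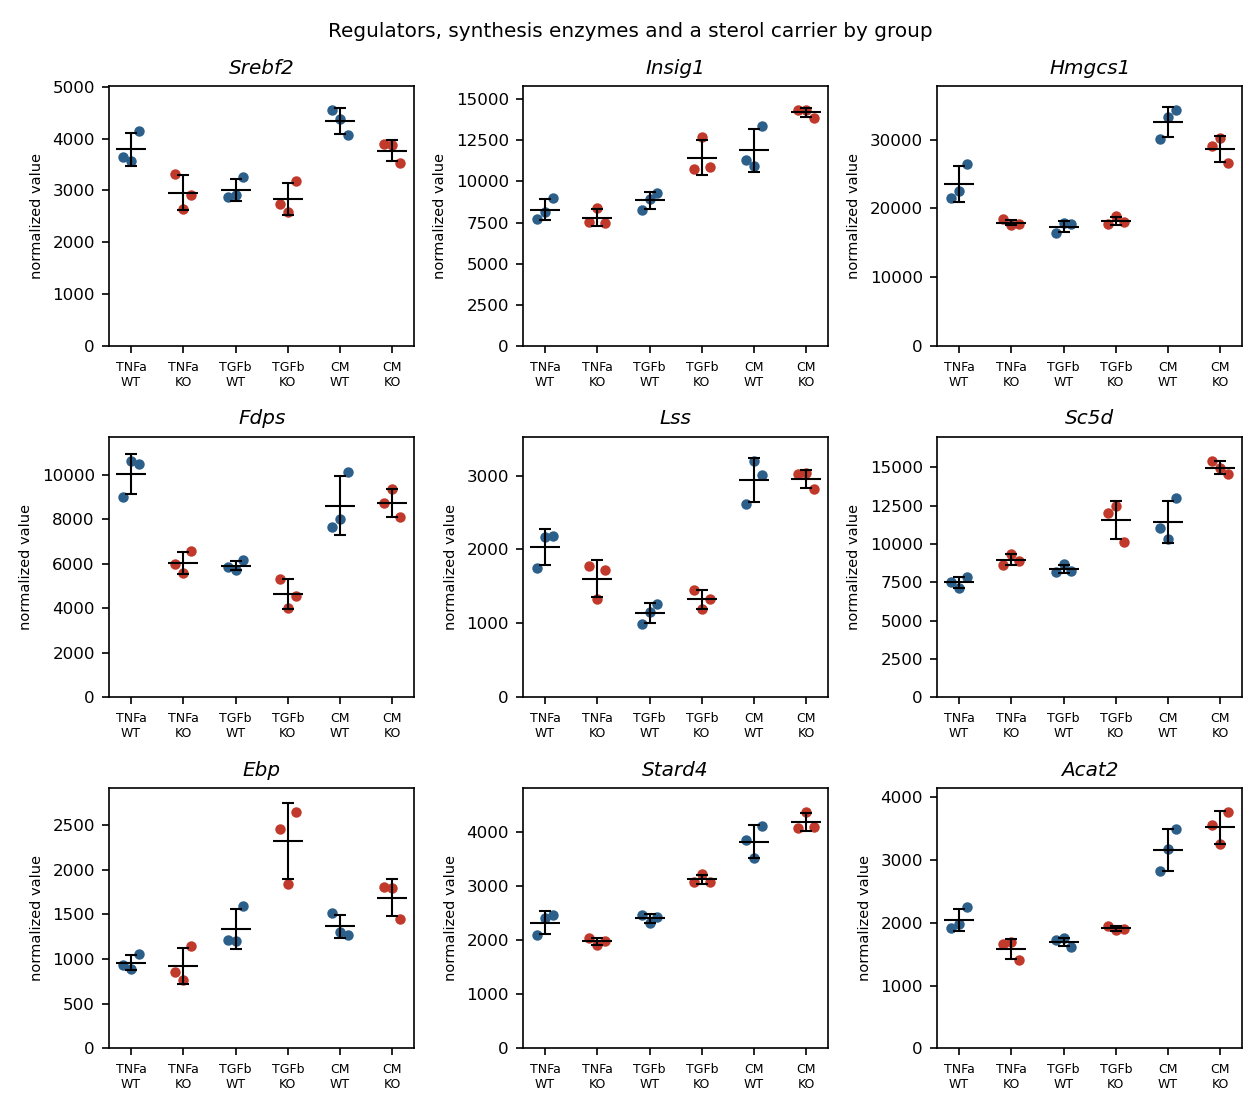
Normalized value of 9 genes in each group: points are the 3 libraries (blue WT, red KO), the long bar is their mean and the whiskers 1 SD. Hmgcs1, Lss and Acat2 are highest in the 2 CM groups, Fdps is high in TNFa WT and low in TNFa KO, and Ebp is highest in TGFb KO.

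In the sterol arm, from squalene to cholesterol, 5 of 11 genes fell in KO with TNFa and none rose, where 3.70% and 4.19% of all genes did. With TGFb 2 rose and 1 fell, against 7.25% and 4.95% of all genes. With CM 1 rose and 1 fell, against 5.62% and 3.77%. The counts with TGFb and with CM are of 1 or 2 genes each, too few to be read as a departure from those shares. Fdft1 encodes squalene synthase; its annotated span overlaps that of Ctsb on the other strand, and whether counting used strand is not given. Fdft1 in WT had normalized values of 1868, 2037 and 2129.7 with TNFa, 1499, 1663 and 1852 with TGFb and 2125, 2789 and 2959 with CM. Fdft1 in KO had 1561, 1489 and 1417 with TNFa, 1509, 1436 and 1456 with TGFb and 2557, 2293 and 2734 with CM. With TNFa the KO libraries were all below WT (log2 fold change -0.43, SE 0.11, adjusted p = 0.0134), and elsewhere the genotypes overlapped. Sqle encodes squalene epoxidase, a rate-controlling step. Sqle in WT had normalized values of 6216, 5221 and 7013 with TNFa, 6353, 6173 and 5816 with TGFb and 7320.3, 8231 and 7905 with CM. Sqle in KO had 4796, 4696 and 4937 with TNFa, 6374, 5222 and 5668 with TGFb and 7199.5, 7079 and 6462 with CM. KO libraries were lower with TNFa (log2 fold change -0.34, SE 0.09, adjusted p = 0.0198) and with CM, where no call was made (-0.18 with adjusted p = 0.294). Lss (chr10:76367422-76392973, plus strand) encodes lanosterol synthase, which closes the sterol rings. Lss in WT had normalized values of 1752, 2163 and 2176 with TNFa, 994, 1153 and 1265 with TGFb and 2618, 3201 and 3007 with CM. Lss in KO had 1771, 1326 and 1724 with TNFa, 1449.7, 1192 and 1329 with TGFb and 3016, 3034 and 2812 with CM. KO and WT libraries of Lss overlapped with each treatment.

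Cyp51 encodes the lanosterol demethylase. Cyp51 in WT had normalized values of 5605, 4994 and 5723 with TNFa, 4898, 5237 and 5083 with TGFb and 8551, 9936 and 9939 with CM. Cyp51 in KO had 5003, 4672 and 4222 with TNFa, 4901, 4366 and 4442 with TGFb and 7818, 7895 and 7509 with CM. With CM every KO library was below every WT library (log2 fold change -0.29, SE 0.09, adjusted p = 0.0304), while the genotypes overlapped with TNFa and with TGFb. Tm7sf2 encodes a sterol reductase and shares part of its span with Vps51 on the same strand, so its values are uncertain. Tm7sf2 in WT had normalized values of 1092, 1627 and 1219 with TNFa, 1602, 1780.1 and 1606 with TGFb and 1994, 1453 and 1658 with CM. Tm7sf2 in KO had 1014, 877 and 852 with TNFa, 1759.7, 1446 and 2011 with TGFb and 1442, 1392 and 1473 with CM. KO was lower with TNFa (log2 fold change -0.50, SE 0.14, adjusted p = 0.0182), and the genotypes overlapped with TGFb and CM. Msmo1 encodes the methylsterol monooxygenase that starts removal of methyl groups. Msmo1 in WT had normalized values of 14149, 13629.5 and 15888 with TNFa, 11167, 11436 and 11590.0 with TGFb and 13273, 13671 and 15988 with CM. Msmo1 in KO had 11557, 11626 and 10753 with TNFa, 11403, 11687 and 9775 with TGFb and 13274, 14218 and 12872 with CM. The KO libraries fell below WT with TNFa (log2 fold change -0.36, SE 0.09, adjusted p = 0.00768) and overlapped under the other treatments.

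Nsdhl encodes the dehydrogenase of the same demethylation. Nsdhl in WT had normalized values of 1366, 1379 and 1619.8 with TNFa, 1317, 1479.7 and 1388 with TGFb and 1639, 1999 and 2013 with CM. Nsdhl in KO had 1132, 874 and 1067 with TNFa, 1099, 1080.2 and 1069.8 with TGFb and 1720.3, 1860.1 and 1655 with CM. It was lower in every KO library with TNFa (log2 fold change -0.51, SE 0.11, adjusted p = 0.004) and with TGFb (log2 fold change -0.36, SE 0.11, adjusted p = 0.034), and overlapped with CM. Hsd17b7 encodes the ketoreductase that completes that step. Hsd17b7 in WT had normalized values of 4038, 3640.1 and 4369.6 with TNFa, 3865, 4043 and 4155 with TGFb and 5987, 6164 and 5881 with CM. Hsd17b7 in KO had 3692, 3551 and 3728 with TNFa, 4011, 4049.9 and 4228 with TGFb and 5343, 5686 and 5018 with CM. No KO difference was called; with CM the KO libraries were lower without overlap (-0.17 with adjusted p = 0.233).

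Of the 11 genes of the sterol arm, the 2 called higher in KO with TGFb were Ebp and Sc5d, where 7.25% of all genes were higher. With CM only Sc5d was called higher, against 5.62% of all genes, and with TNFa none was. Ebp (chrX:8051568-8059752, minus strand) encodes the sterol isomerase also known as the emopamil-binding protein. Ebp in WT had normalized values of 933, 890.5 and 1051 with TNFa, 1214, 1201 and 1595 with TGFb and 1514, 1305 and 1274 with CM. Ebp in KO had 857, 762 and 1142 with TNFa, 2462, 1837 and 2650.5 with TGFb and 1809, 1800.1 and 1448 with CM. With TGFb all KO libraries stood above all WT libraries, at 1.73 times the WT mean (log2 fold change 0.79, SE 0.15, adjusted p = 0.000307); with TNFa and CM the genotypes overlapped. Sc5d (chr9:42162891-42175553, minus strand) encodes the desaturase that acts on lathosterol. Sc5d in WT had normalized values of 7517, 7146 and 7869 with TNFa, 8167, 8674 and 8222 with TGFb and 11028, 10310.1 and 12963 with CM. Sc5d in KO had 8615, 9330.4 and 8907 with TNFa, 12015, 12446 and 10116 with TGFb and 15422, 14963 and 14527 with CM. KO libraries were above WT under all 3 treatments, called with TGFb (log2 fold change 0.46, SE 0.09, adjusted p = 0.000429) and with CM (log2 fold change 0.40, SE 0.09, adjusted p = 0.00312) but not with TNFa (0.25 with adjusted p = 0.078). Dhcr7 encodes a terminal reductase. Dhcr7 in WT had normalized values of 1280.4, 1774 and 1494 with TNFa, 1609, 1613 and 1311 with TGFb and 2277, 2639.9 and 2412 with CM. Dhcr7 in KO had 1554, 1334 and 1539 with TNFa, 1748, 1979.8 and 1756 with TGFb and 2769, 2723 and 2974 with CM. KO libraries were higher with TGFb and CM without overlap, and no difference was called (0.28 with adjusted p = 0.123 and 0.21 with adjusted p = 0.308).

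The calls of Nsdhl with TNFa, of Ebp with TGFb and of Sc5d with TGFb and CM held in all 14 alternatives. Those of Fdft1, Sqle, Tm7sf2 and Msmo1 with TNFa, Nsdhl with TGFb and Cyp51 with CM each ended when single libraries were left out. The third TNFa WT library ended those of Fdft1, Sqle and Msmo1 when left out. The third TNFa KO library also ended that of Fdft1, and the first TNFa WT and the first and second TNFa KO libraries that of Sqle. The second TNFa WT library and the second and the third TNFa KO libraries ended that of Tm7sf2. Leaving out any KO library, or the second or the third WT library, of the treatment concerned ended that of Nsdhl with TGFb and that of Cyp51 with CM. The highest adjusted p over the alternatives was 0.0746 for Fdft1, 0.18 for Sqle, 0.165 for Tm7sf2, 0.0744 for Msmo1, 0.136 for Nsdhl and 0.114 for Cyp51. Of the 19 synthesis genes, 8 were lower with TNFa; this count was 3 without the third WT library, 5 without the third KO library and 5 when only the groups compared were fitted.

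Among the genes of transport and storage, Stard4 encodes a soluble carrier that moves sterol between membranes. Stard4 in WT had normalized values of 2087, 2418 and 2468 with TNFa, 2469, 2309.6 and 2436 with TGFb and 3849, 3512 and 4111 with CM. Stard4 in KO had 2042, 1912 and 1988 with TNFa, 3071, 3227 and 3078 with TGFb and 4074, 4378 and 4103 with CM. Its KO libraries were above WT with TGFb (log2 fold change 0.38, SE 0.09, adjusted p = 0.00357), a call held in all 14 alternatives. With TNFa the KO libraries were the lower ones without a call (-0.23 with adjusted p = 0.122), and with CM the genotypes overlapped. Npc1 encodes the lysosomal membrane protein that exports cholesterol taken up by endocytosis; its span overlaps that of Rmc1 on the other strand. Npc1 in WT had normalized values of 5279, 4862 and 5263 with TNFa, 6237, 6305 and 6074 with TGFb and 5719, 6719 and 5017 with CM. Npc1 in KO had 6057, 5749 and 5373 with TNFa, 6217, 6756 and 7329.5 with TGFb and 5116, 5068 and 4825 with CM. No KO difference was called, although the KO libraries were higher with TNFa without overlap (0.16 with adjusted p = 0.354). Npc2, its soluble partner, ranged from 563 to 811 over the 18 libraries, and Soat2, which esterifies cholesterol for storage and lipoproteins, from 387 to 679. Neither was called between genotypes under any treatment.

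The KO differences of largest size among the 31 genes were those of exporters under all 3 treatments: Abcg1 with TNFa and CM and Abcg8 with TGFb. Abcg1 (chr17:31276649-31336963, plus strand) passes cholesterol to high-density lipoprotein and is known to be abundant in macrophages. Abcg1 in WT had normalized values of 105, 77.4 and 59.8 with TNFa, 158, 85.8 and 129 with TGFb and 85.2, 81.0 and 45.0 with CM. Abcg1 in KO had 263, 197 and 235 with TNFa, 271, 259.6 and 299 with TGFb and 252, 197 and 137 with CM. No KO library overlapped with WT under any treatment. KO means were 2.87, 2.22 and 2.77 times the WT means with TNFa, TGFb and CM (log2 fold changes 1.54 with adjusted p = 0.00236, 1.19 with adjusted p = 0.014 and 1.47 with adjusted p = 0.00287). The SE was 0.33 in each comparison, and the gene varied by up to 31.4% of its mean within a group.

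Abcg5 (chr17:84965662-84990440, minus strand) and Abcg8 (chr17:84983730-85007762, plus strand) encode the partners of the heterodimer that secretes sterols into bile. Their annotated spans overlap by 6711 bases on opposite strands, and without stated strand counting their reads may be partly shared, so each value is uncertain. Abcg5 in WT had normalized values of 118, 184 and 164 with TNFa, 368, 419.7 and 411 with TGFb and 440.2, 458 and 383 with CM. Abcg5 in KO had 274, 250.3 and 271 with TNFa, 635, 561 and 644 with TGFb and 706, 724 and 514 with CM. KO libraries lay above WT with each treatment, at 1.71, 1.54 and 1.52 times the WT mean. All 3 rises were called (log2 fold changes 0.79 with adjusted p = 0.00638 with TNFa, 0.62 with adjusted p = 0.0276 with TGFb and 0.59 with adjusted p = 0.0445 with CM). Abcg8 in WT had normalized values of 178, 179 and 113 with TNFa, 311, 311 and 368 with TGFb and 463, 427 and 439 with CM. Abcg8 in KO had 346, 257 and 333 with TNFa, 789, 783 and 826 with TGFb and 654, 743 and 559.7 with CM. Again no KO library overlapped with WT. The rise was called with TNFa (log2 fold change 1.01, SE 0.19, adjusted p = 0.000612) and with TGFb (log2 fold change 1.28, SE 0.19, adjusted p = 1e-05) and missed the threshold with CM (log2 fold change 0.55, SE 0.19, adjusted p = 0.0664).

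Abca1 (chr4:53030787-53159896, minus strand) loads cholesterol and phospholipid onto apolipoprotein A-I. Abca1 in WT had normalized values of 3831, 3686 and 4179.5 with TNFa, 4367, 4239 and 4496 with TGFb and 6788, 6069.6 and 5159.8 with CM. Abca1 in KO had 3757, 3637 and 3822 with TNFa, 4601, 4996 and 5514 with TGFb and 4572, 4701 and 4301 with CM. It did not follow the other exporters: KO libraries overlapped with WT with TNFa, were higher without a call with TGFb (0.20 with adjusted p = 0.179) and were all lower with CM (log2 fold change -0.40, SE 0.09, adjusted p = 0.00432). Of the 4 exporters, 3 rose with TNFa, 3 rose with TGFb, and with CM 2 rose and 1 fell. Of all tested genes, 4.19%, 7.25% and 5.62% were higher in KO, and 3.77% were lower with CM. The exporters' median log2 fold changes were 0.90, 0.90 and 0.57. The TNFa and CM calls of Abcg1 and the TGFb call of Abcg8 held in all 14 alternatives, and those of Abcg8 with TNFa and Abca1 with CM ended in 1, the fit of only the groups compared (adjusted p = 0.0567 and 0.063). The CM call of Abcg5 was lost in 9 of 14 (adjusted p up to 0.19), among them the omission of any WT library or of the first or second KO library. Its TGFb call was lost in 6, among them the omission of any WT library or of the first or the third KO library, and its TNFa call without the first WT library (up to 0.0964). Without the second TGFb WT or the third TGFb KO library the call of Abcg1 with TGFb ended (up to 0.0993) and 1 exporter was called. When only the groups compared were fitted, 1 exporter was called with TNFa and 1 with CM.

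**Figure D4:**
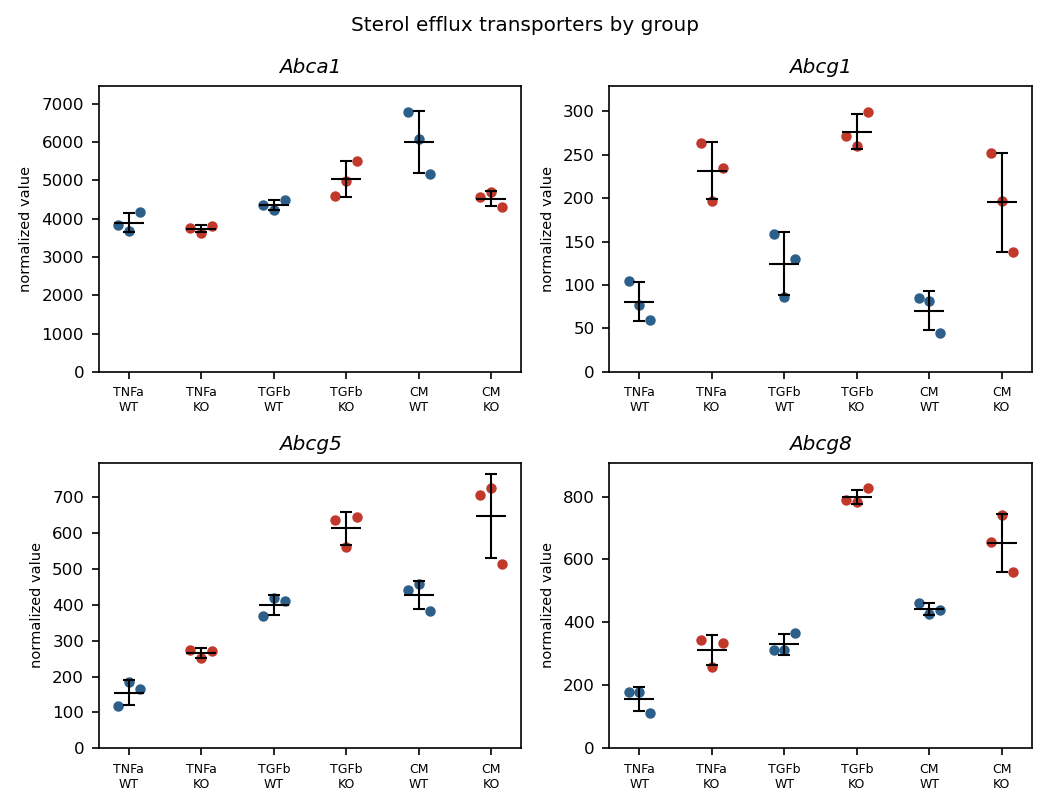
Normalized value of the 4 exporters in each group: points are the 3 libraries (blue WT, red KO), the long bar is their mean and the whiskers 1 SD. For Abcg1, Abcg5 and Abcg8 the red points lie above the blue points of the same treatment. For Abca1 the CM WT mean is the highest, though its points overlap with those of TGFb KO.

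Markers of macrophages moved in the same direction as these 3 exporters. Of 14 Kupffer cell and macrophage markers, 8, 10 and 9 were higher in KO with TNFa, TGFb and CM and none was lower (limma). Of all tested genes, 4.19%, 7.25% and 5.62% were higher in these 3 comparisons, and 3.70%, 4.95% and 3.77% were lower. These shares hold for the lists below as well. The summed value of the 14 markers was 4721 to 5374 in WT and 9367 to 10502 in KO with TNFa. With TGFb it was 3718 to 4329.6 in WT and 7578 to 9145 in KO, and with CM 3483 to 4000.2 in WT and 7468 to 7563 in KO. The Kupffer cell gene Clec4f ranged from 10.7 to 408 over the 18 libraries, Timd4 was listed at 0 in 4 of them and Fcgr1 in 6, and the other markers were above 0 in all. Mpeg1 (944 to 3201) and Cd68 (1071 to 2280) had the largest values in this sum. Summed markers of sinusoidal endothelium were 3161 to 3587 in WT and 5664 to 5981 in KO with TNFa. They were 3383 to 3891 and 4646 to 5816 with TGFb, and 2871 to 3508 and 4314 to 4542 with CM. Of these 10 markers 3, 2 and 1 were higher in KO with TNFa, TGFb and CM. The last count, of 1 gene, is too small to be read as a departure from the share of all genes. Of 11 genes of isolation stress, 1, 6 and 4 were higher in KO. Of the 10 hepatocyte markers, 2 were higher and 2 lower in KO with TNFa, and 3 were higher and none lower with TGFb and with CM. Their summed value, mostly that of Alb, was 2321849 to 2440502 in WT and 3163453 to 3345129 in KO with TGFb. Of 5 cholangiocyte genes 2 were lower with TNFa, and of the 6 stellate cell and 3 T and B cell genes tested at most 1 was called per treatment. The part of these differences in the exporter values was not tested.

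The next question was whether the KO difference itself changed with the treatment. An F-test over the 3 treatments called 4 members, against 1.70% of all tested genes: Fdps (adjusted p = 0.0171), Stard4 (0.0236), Abca1 (0.0319) and Acat2 (0.0486). The KO difference of Fdps with CM exceeded that with TNFa by 0.76 on the log2 scale (SE 0.15, adjusted p = 0.013). For Stard4 the KO difference with TGFb exceeded that with TNFa by 0.61 (SE 0.13, adjusted p = 0.0124). For Abca1 the KO difference with CM was below that with TGFb, with a difference of -0.60 (SE 0.13, adjusted p = 0.0293). Ebp did not pass the F-test (adjusted p = 0.0612), but its KO difference with TGFb exceeded that with TNFa by 0.86 (SE 0.21, adjusted p = 0.0363). No pairwise difference of Acat2 was called, and the closest was TGFb against TNFa (0.54 with adjusted p = 0.0555).

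For Abcg1 no difference of the KO effect between treatments was called, and the intervals were wide: the 95% interval of TGFb minus TNFa was -1.29 to 0.60 and that of CM minus TNFa -1.01 to 0.88. For Abcg5 they were -0.72 to 0.37 and -0.75 to 0.34. For Abcg8 the KO effect with CM minus that with TGFb was -0.73 (95% interval -1.28 to -0.18, adjusted p = 0.268). The count of 4 ranged from 1 to 7 when single libraries were left out. It was 1 without the third TNFa WT, the second TGFb WT or the second CM KO library. It was 2 without any of 8 other libraries (the first TNFa WT, first or second TNFa KO, first TGFb WT, the third TGFb KO, first CM WT, or first or the third CM KO), and 7 without the third CM WT library. The call of Acat2 was lost in 21 of 26 alternatives, that of Abca1 in 12, that of Stard4 in 4 and that of Fdps in 2.

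The third question was how the treatments differed within a genotype. Most cholesterol synthesis genes were higher with CM than with either cytokine in both genotypes. Of the 31 members, 21 had their highest group mean in a CM group, 7 in a TGFb group and 3 in a TNFa group. The same count was not made over all genes, so this order is a description only. In WT, 17 members were higher with CM than with TNFa and none was lower, against 6.81% and 5.46% of all genes (20 members had an unadjusted p below 0.05 in either direction). Against TGFb in WT, 19 were higher with CM and none lower, where 5.76% and 6.09% of all genes were. In KO, 23 were higher with CM than with TNFa and none lower, against 8.38% and 4.32%. Against TGFb in KO, 18 were higher with CM and 2 lower, against 5.20% and 5.39%.

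The members' median log2 fold changes in these 4 comparisons were 0.38, 0.45, 0.67 and 0.37, beside 0.04, 0.02, -0.02 and 0.00 over all genes. The WT comparisons share the CM WT libraries and the KO comparisons the CM KO libraries, so they are not independent. Of the 19 synthesis genes alone, 12 and 14 were higher with CM in WT (against TNFa and TGFb) and 16 and 14 in KO, and 1 was lower, Ebp in KO against TGFb. Equal totals shifted the median of all genes by -0.15 for CM against TNFa in KO and by 0.099 for CM against TGFb in KO, and no called member changed sign under that scaling or under quantile normalization.

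In the mevalonate arm, 3 of 8 genes were called higher with CM than with TNFa in WT and 6 in KO. Against TGFb the counts were 5 in WT and 6 in KO, and no gene of this arm was called lower with CM. Of all genes 6.81%, 8.38%, 5.76% and 5.20% were higher in these comparisons. Hmgcs1 with CM had 1.39 times its TNFa mean and 1.88 times its TGFb mean in WT. Its log2 fold changes were 0.48 (limma adjusted p = 0.000225) and 0.91 (limma adjusted p = 6.13e-09). All CM libraries of Hmgcs1 lay above all cytokine libraries of the same genotype. Acat2 was 2.22 times as high with CM as with TNFa in KO (log2 fold change 1.15, SE 0.10, adjusted p = 2.05e-09). Mvd was 2.13 times as high with CM as with TGFb in WT (log2 fold change 1.12, SE 0.18, adjusted p = 4.52e-05), and Idi1 was higher with CM in all 4 comparisons (0.43, 0.63, 0.46 and 0.56). Fdps departed from this: in WT its CM and TNFa libraries overlapped (-0.23 with adjusted p = 0.169), while in KO CM was higher (0.53 with adjusted p = 0.000527). Mvk was called higher with CM in KO (0.88 with adjusted p = 0.0251 against TNFa and 1.22 with adjusted p = 0.00228 against TGFb) and not in WT (0.32 with adjusted p = 0.519 and 0.47 with adjusted p = 0.291), and Pmvk and Ggps1 were called in no treatment comparison.

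In the sterol arm, Lss with CM was 2.59 times its TGFb mean in WT (log2 fold change 1.37, SE 0.12, adjusted p = 1.52e-09), the largest CM difference of any synthesis gene in the WT comparisons. In KO it was 2.23 times its TGFb mean (log2 fold change 1.16, SE 0.12, adjusted p = 4.28e-08), below Mvk and Mvd in that comparison (1.22 and 1.22). Cyp51 with CM was 1.74 times its TNFa mean and 1.87 times its TGFb mean in WT (0.80 with adjusted p = 9.51e-08 and 0.90 with adjusted p = 7.54e-09). Fdft1, Lss, Cyp51, Nsdhl, Hsd17b7, Sc5d and Dhcr7 were called higher with CM in all 4 comparisons. In WT against TNFa the CM libraries of Fdft1 overlapped with the TNFa libraries although the difference was called (0.37 with adjusted p = 0.0269). Hmgcs1, Insig1, Lss and Sc5d, whose promoters are printed above, were thus each called in all 4. Sqle was called higher in 3 of the 4, all but TGFb in KO (0.27 with adjusted p = 0.0693).

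Msmo1, Tm7sf2 and Ebp were the exceptions of this arm. Msmo1 was not called between CM and TNFa in WT (-0.03 with adjusted p = 0.905) or in KO (0.25 with adjusted p = 0.0598) and was higher with CM than with TGFb in both. Tm7sf2 was called in 1 of the 4, against TNFa in KO (0.65 with adjusted p = 0.000981). Ebp was higher with CM than with TNFa in WT (0.51 with adjusted p = 0.0208) and KO (0.89 with adjusted p = 5.75e-05), was not called against TGFb in WT (0.04 with adjusted p = 0.912) and was lower than with TGFb in KO (-0.45 with adjusted p = 0.0489).

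**Figure D5:**
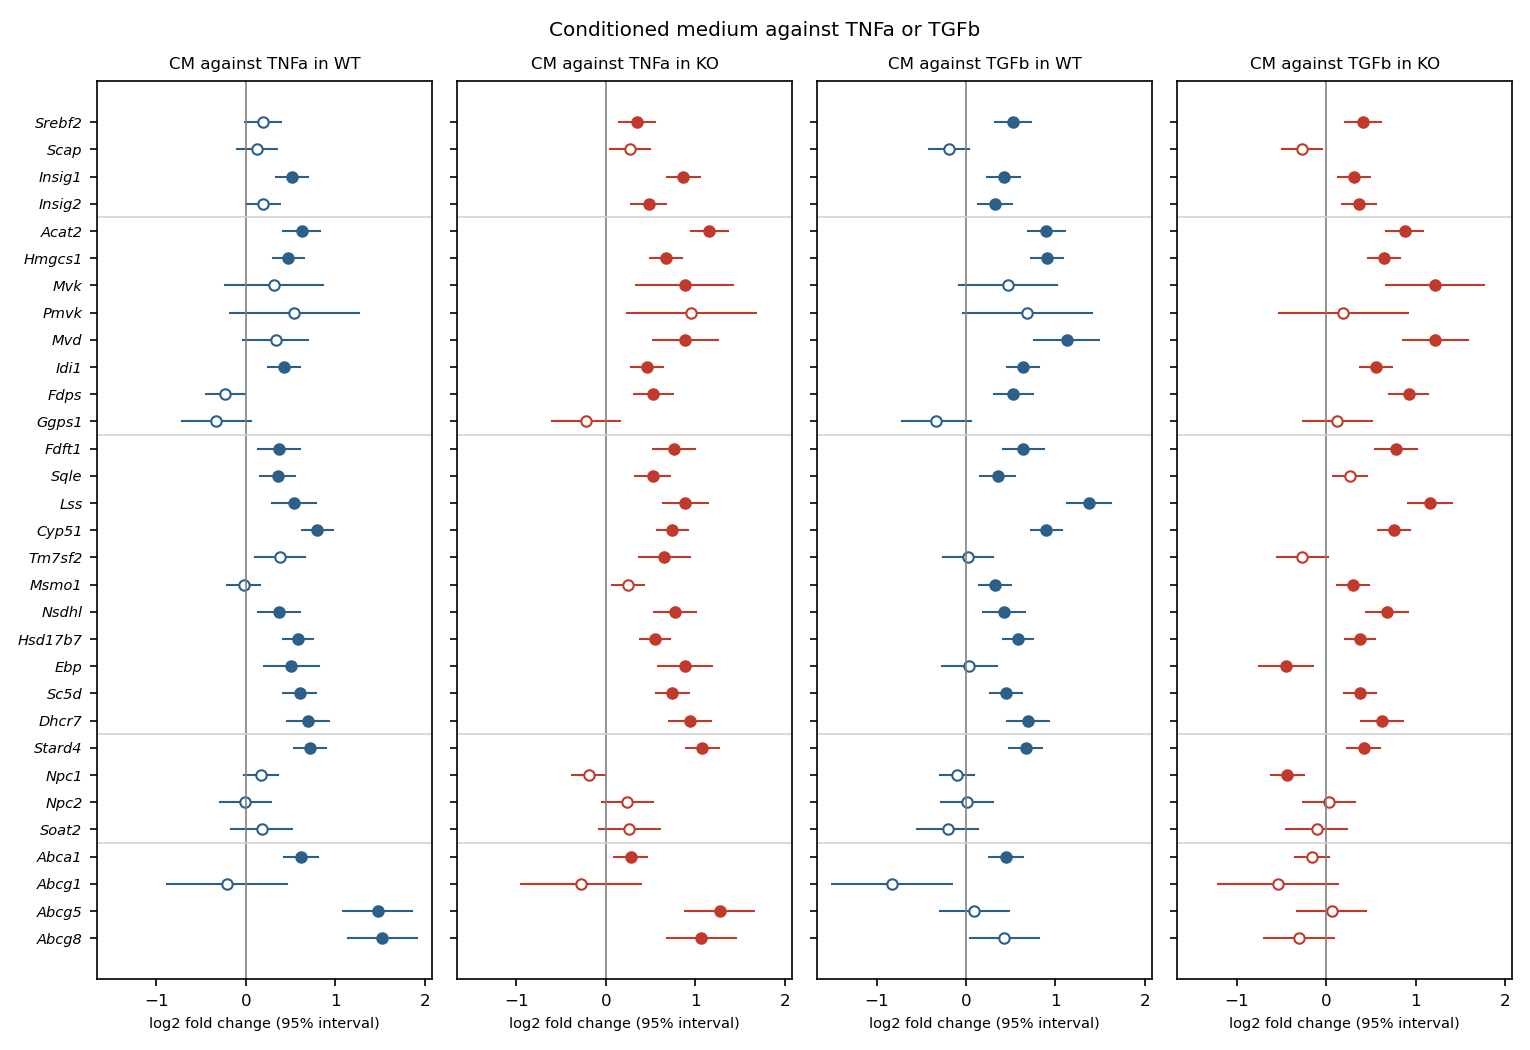
Points are log2 fold changes of CM against TNFa or TGFb within WT (blue) and KO (red) with 95% intervals; filled points have an adjusted p below 0.05, and grey lines separate the 5 groups of genes. In all 4 panels most filled points of the synthesis genes lie right of 0, and Abcg5 and Abcg8 are filled in the 2 comparisons with TNFa and open in the 2 with TGFb.

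Of the regulators, Insig1 was higher with CM in all 4 comparisons, most against TNFa in KO (1.82 times, log2 fold change 0.86, SE 0.09, adjusted p = 3.67e-08). Srebf2 and Insig2 were called in 3 of the 4, all but CM against TNFa in WT (0.19 with adjusted p = 0.224 and 0.20 with adjusted p = 0.191). Scap was called in none of the 4. Stard4 was higher with CM in all 4, by 0.72 and 0.67 in WT and 1.08 and 0.42 in KO. Npc1 went the other way against TGFb in KO (-0.43 with adjusted p = 0.00167), and Npc2 and Soat2 were not called.

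Among the exporters, Abcg5 and Abcg8 had their lowest group means with TNFa in both genotypes. CM exceeded TNFa 2.75-fold for Abcg5 and 2.83-fold for Abcg8 in WT (log2 fold change 1.47, SE 0.19, adjusted p = 1.39e-06 and log2 fold change 1.52, SE 0.19, adjusted p = 8.29e-07). In KO the same ratios were 2.44 and 2.09 (log2 fold change 1.27, SE 0.19, adjusted p = 1.01e-05 and log2 fold change 1.06, SE 0.19, adjusted p = 0.000126). Against TGFb neither was called in WT (0.09 with adjusted p = 0.819 and 0.43 with adjusted p = 0.153) or in KO (0.06 with adjusted p = 0.885 and -0.30 with adjusted p = 0.357). Abca1 was higher with CM than with TNFa (0.62 with adjusted p = 1.87e-05) and TGFb (0.45 with adjusted p = 0.00106) in WT, and in KO against TNFa (0.27 with adjusted p = 0.0487) but not TGFb (-0.15 with adjusted p = 0.345). The count of 3 exporters called for CM against TNFa in KO was 2 without any 1 of its 6 libraries. Abcg1 was called in no treatment comparison.

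Hepatocyte markers moved between treatments too. In WT 7 of the 10 markers were higher with CM than with TNFa and none was lower, against 6.81% and 5.46% of all genes. In KO all 10 were higher and none lower, against 8.38% and 4.32%. Compared with TGFb in WT, 2 were higher with CM and 4 lower, against 5.76% and 6.09%. In KO none was higher than with TGFb and 2 were lower, against 5.20% and 5.39% (limma). Their summed value was 1713924 to 1794996 with TNFa, 2321849 to 2440502 with TGFb and 2040775 to 2137862 with CM in WT. In KO it was 1638579 to 1721903, 3163453 to 3345129 and 2605086 to 2694959. In both genotypes the CM libraries thus had a higher hepatocyte marker sum than the TNFa libraries and a lower one than the TGFb libraries. Alb made up most of each sum, with values of 1290000 to 2730000 over the 18 libraries, and Apob came next with 139764 to 243246. The summed value of all 31 members made up 0.656% to 0.742% of a library with CM, 0.451% to 0.472% with TGFb and 0.528% to 0.591% with TNFa in WT. The part of the marker differences in the comparisons with TNFa was not tested.

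Fewer members were called between TNFa and TGFb. In WT, 6 members were higher with TNFa and 4 lower, against 5.33% and 8.06% of all genes. Higher were Srebf2 (0.33 with adjusted p = 0.0208), Hmgcs1 (0.43 with adjusted p = 0.000528), Mvd (0.79 with adjusted p = 0.00205), Fdps (0.76 with adjusted p = 3.4e-06), Lss (0.84 with adjusted p = 6.88e-06) and Msmo1 (0.35 with adjusted p = 0.00534). Lower were Ebp (-0.47 with adjusted p = 0.0303), Npc1 (-0.27 with adjusted p = 0.0441), Abcg5 (-1.38 with adjusted p = 2.61e-06) and Abcg8 (-1.10 with adjusted p = 8.15e-05). None of the 10 had overlapping libraries, but they were picked by their adjusted p. Overlap was not counted over all genes, so this is a description only. In KO, 1 member was higher with TNFa, Fdps (0.39 with adjusted p = 0.00618), and 9 were lower, against 10.1% and 12.3% of all genes. The 9 were Scap, Insig1, Tm7sf2, Ebp, Sc5d, Stard4, Abca1, Abcg5 and Abcg8, of which Ebp (-1.33 with adjusted p = 2.92e-08) and Abcg8 (-1.37 with adjusted p = 1.43e-06) differed most.

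Scaling mattered most for this pair of treatments. Equal totals gave 9 higher and 2 lower in WT and 9 higher and 7 lower in KO, with the median of all genes shifted by 0.11 and 0.25. Quantile normalization gave 8 higher and 2 lower in WT and 4 higher and 8 lower in KO. No member called in the deposited scaling changed sign under either.

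Synthesis genes and exporters can be set side by side by these counts. With TNFa, 0 of 19 synthesis genes were higher and 8 lower in KO, with a median of -0.34, while 3 of 4 exporters were higher and 0 lower (4.19% and 3.70% of all genes). With TGFb, 2 of 19 were higher and 2 lower, with a median of 0.03, and 3 of 4 exporters were higher and 0 lower (7.25% and 4.95% of all genes). With CM, 1 of 19 was higher and 1 lower, with a median of -0.04, and 2 of 4 exporters were higher and 1 lower (5.62% and 3.77% of all genes). The synthesis counts with TGFb and with CM are of 1 or 2 genes each, too few to be read as a departure from those shares. From TNFa to CM in WT, 12 of 19 synthesis genes and 3 of 4 exporters rose, and from TGFb to CM 14 of 19 and 1 of 4. In KO 16 of 19 and 3 of 4 rose from TNFa to CM, and 14 of 19 and 0 of 4 from TGFb to CM (0 of 4 exporters also at an unadjusted p below 0.05), where 6.81%, 5.76%, 8.38% and 5.20% of all genes were higher with CM in these 4 comparisons. The difference between the gene groups was not tested.

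All of 27 further genes of sterol sensing, synthesis, transport and LXR response were in the table and tested. In KO 2 were higher and 1 lower with TNFa, where 4.19% and 3.70% of all genes were. With TGFb 5 were higher and none lower, against 7.25% and 4.95%, and with CM 3 were higher and 2 lower, against 5.62% and 3.77%. Soat1, the cholesterol esterifying enzyme known from macrophages, had values of 489, 506 and 465 in WT and 1203, 1171 and 1110.4 in KO with TNFa. KO libraries of Soat1 were higher under all 3 treatments without overlap (1.25 with adjusted p = 9.48e-08, 0.95 with adjusted p = 5.15e-06 and 1.05 with adjusted p = 1.66e-06). Lpcat3, a phospholipid remodelling enzyme regulated by LXR, was lower in KO with TNFa (-0.62 with adjusted p = 0.00175). The LXR receptor gene Nr1h3 was higher in KO with TGFb (0.68 with adjusted p = 0.0292). That call ended without the first or second WT or the first KO library (adjusted p = 0.184, 0.0677 and 0.179). Nr1h3 was not called with TNFa (0.11 with adjusted p = 0.832) or with CM (0.60 with adjusted p = 0.072). Averaged over treatments, 8 of the 27 were higher and 2 lower, against 11.2% and 9.53% of all genes. Nr1h3 and Smpdl3a were higher (0.46 with adjusted p = 0.00534 and 0.28 with adjusted p = 0.0199) and Lpcat3 lower (-0.38 with adjusted p = 0.000295). Srebf1, Mylip and Nr1h2 were not called in that average (0.16, 0.71 and -0.20 with adjusted p = 0.0583, 0.0893 and 0.241). Gramd1b, a sterol transfer protein, had values of 35.5, 2.28 and 65.9 in WT and 147, 163 and 62.4 in KO with TNFa, and the libraries overlapped. It was called higher (2.53 with adjusted p = 0.0143), but the second WT library was close to 0, and without it the log2 fold change was 1.22 and not called (adjusted p = 0.152). The call also ended without the first or second KO library (0.0655 and 0.074).

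With TGFb, Srebf1, which encodes SREBP1, had values of 2672, 2744 and 2939 in WT and 3953, 3653 and 4218 in KO. The KO libraries of Srebf1 were all higher (log2 fold change 0.50, SE 0.10, adjusted p = 0.000822), as were those of Scarb1, the receptor for high-density lipoprotein (log2 fold change 0.62, SE 0.12, adjusted p = 0.000487). With CM, Scarb1 was again higher (0.46 with adjusted p = 0.0128), while Lrp1, an endocytic receptor (-0.51 with adjusted p = 0.0141), and Mbtps1, a protease that cuts SREBP2 (-0.50 with adjusted p = 0.0154), were lower. Each of these 3 calls with CM was lost when certain single libraries were left out, while the direction was kept. That of Scarb1 ended without the first WT, first KO or second KO library (adjusted p = 0.0504, 0.0697 and 0.0948). Those of Lrp1 and Mbtps1 ended without the second WT library (0.138 and 0.103) or the third KO library (0.0869 and 0.0625). Between treatments, 5 of the 27 were higher with CM than with TNFa in WT and none lower, against 6.81% and 5.46% of all genes, and 6 were higher than with TGFb and none lower, against 5.76% and 6.09%. In KO, 9 were higher with CM than with TNFa and none lower, against 8.38% and 4.32%. Against TGFb in KO, 3 were higher and 1 lower, against 5.20% and 5.39%. Srebf1 was higher with CM than with TNFa in WT (0.46 with adjusted p = 0.00214) and in KO (0.80 with adjusted p = 9.42e-07). Lipa, the lysosomal lipase that frees cholesterol from its esters, was likewise higher in WT (0.66 with adjusted p = 1.22e-05) and in KO (0.73 with adjusted p = 1.57e-06). So was Lrp1, in WT (1.06 with adjusted p = 1.43e-06) and in KO (0.69 with adjusted p = 0.000469).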

How the data were processed

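RNA of 18 hepatocyte libraries (6 groups of 3) was extracted with RNeasy and depleted of ribosomal RNA, per the labels' protocols. The deposited unit is a signal: a value per gene and library that the authors normalized with DESeq2, per the file name. Partek, STAR 2.7.8a, DESeq2 and the build mm39 are named in the submitters' processing notes. How reads were counted, and whether by strand is not given in the labels or the notes. Raw counts were not used, and whole reads could not be recovered from the values, so no count model was fitted and the depth is unknown.

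Values were transformed as log2(value + 1) for the 14455 of 16873 genes that reached 10 in 3 or more libraries. Group means were fitted with limma 3.58.1 (limma-trend, R 4.3.3; 12 residual and 17 prior degrees of freedom) on all 18 libraries without a block, and p-values were adjusted over all tested genes by the Benjamini-Hochberg method with a threshold of 0.05. The KO effect was compared between treatments by an F-test and by pairwise differences. Promoter windows came from RefSeq (GRCm38.p6); plotting used matplotlib 3.10.9, and tables used pandas 2.3.3 and NumPy 2.4.6 under Python 3.11.15.

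The 31 members, the 27 further sterol genes, the marker lists and the tests were chosen with earlier results of these data known. Values per library are given for regulators, exporters and members called between genotypes, in the F-test or between treatments in WT; the other 5 members are given by range. Of the further genes, up to 4 called genes per comparison with the smallest p were eligible to be named, and Nr1h3 and Smpdl3a were named beside Lpcat3. Srebf1, Mylip and Nr1h2 are given beside them as not called in the average over treatments. Some genes of the pathway are not analysed here. Alternatives were pseudocounts of 0.5 and 5, no filter, a mean of at least 50, equal totals, quantile normalization, a fit limited to the compared groups, a block for replicate number (overall or within a genotype), and omission of each library in turn. Same-numbered libraries of different groups did not deviate together (correlations of -0.068 to 0.054 across genes), so the numbers were not taken to pair samples.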

Additional observations from a re-analysis of the deposited data

Results flagged for a closer look

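For 4 members the KO difference was not the same under all treatments by the F-test (limma, adjusted over all tested genes): Fdps (adjusted p = 0.0171), Stard4 (0.0236), Abca1 (0.0319) and Acat2 (0.0486). On the log2 scale, the KO effect of Fdps with CM exceeded that with TNFa by 0.76, and that of Stard4 with TGFb exceeded that with TNFa by 0.61. The KO effect of Abca1 with CM minus that with TGFb was -0.60. For Ebp the pairwise difference of TGFb minus TNFa was called, at 0.86, without the F-test passing.

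Among the further sterol genes, Srebf1 passed the F-test (adjusted p = 0.0274). Its KO effect with TGFb exceeded that with TNFa by 0.69.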

How the results depend on the processing

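Of 31 calls of single members, 10 held in every alternative run; of 482 comparisons with an alternative, 98 lost the call and 0 changed direction. When only the groups compared were fitted, which leaves fewer samples to estimate the spread, the KO differences called fell to 7 with TNFa and 2 with CM. Of the synthesis genes 5 were then called with TNFa and 1 with CM, and of the exporters 1 with each. Equal totals gave 16 calls for TNFa against TGFb in KO, 4 synthesis genes for KO with CM and 2 genes in the F-test between treatments. The F-test also gave 2 genes without the filter on low values. With the replicate number as a block the F-test called 2 genes; no other count moved by more than 1.5 times with the block.

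Leaving out single libraries gave 7 to 12 members called between genotypes with TNFa, 5 to 8 with TGFb and 3 to 5 with CM, and 1 to 7 in the F-test. For synthesis genes the counts were 3 to 8 with TNFa, 2 to 4 with TGFb and 1 to 2 with CM, and for exporters 1 to 3 with TGFb. Treatment comparisons moved less: 14 to 17 and 16 to 19 for CM against TNFa and TGFb in WT, and 20 to 23 and 16 to 20 in KO. The causes were not tested. With 3 libraries a group and no read counts, differences of low genes such as Abcg1, Mvk and Pmvk have wide intervals.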
